A study of Mus musculus with 4 samples.

Results

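Genes of cholesterol synthesis, uptake control and efflux were read in liver RNA on 4 Affymetrix arrays, which cross 2 genotypes with 2 diets. The list held 29 gene symbols, taken by name, though it was chosen with earlier results of these data known. For each symbol the brightest probe set (by mean over the arrays) annotated to that symbol alone was used. Of the 29 genes, 26 were measured, among 22180 genes named on the array. Acat2, the cytosolic thiolase that opens the pathway, and Soat2, which esterifies cholesterol for storage and secretion, had no probe set in the annotation used, and the probe set of Idi1, the isopentenyl diphosphate isomerase, also names a second gene and was given no value. All mice were C57Bl6, 16 weeks old, and carried the MyD88 lox/lox alleles, in which the gene for a signalling adaptor of Toll-like and interleukin-1 receptors is floxed. Mice without Cre are called wild type (WT). The liver knockout (LKO) mice also carried ALB Cre, which is driven by the albumin promoter and acts mainly in hepatocytes. Whether other cells of the liver kept the gene was not measured. The control diet held 9.4% fat and the high-fat diet (HFD) 60%. Each array was hybridised with a pool of RNA from 4 to 5 mice picked for RNA quality, so no group had a replicate, the spread between mice was not measured, and the number of arrays limits the precision.

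Cholesterol is built from acetyl-CoA through mevalonate, squalene and lanosterol. The transcription factor SREBP2, encoded by Srebf2, drives most of the enzyme genes when sterols in the endoplasmic reticulum are low; its escort Scap carries it to the Golgi, and the Insig proteins hold Scap back when sterols are plentiful. Cells that hold excess cholesterol export it through ABC transporters and limit the uptake of lipoproteins, both under control of the oxysterol receptors LXR, and lysosomal proteins release the cholesterol that arrives with lipoproteins. The liver is a main site of each of these steps.

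Promoter sequences are shown for 4 genes picked for low values on HFD. SREBP2 binds a sterol regulatory element and works together with the factor NF-Y, which binds the CCAAT box. Whether either factor has a part in the diet differences of these 4 genes was not tested. The RefSeq promoter table (GRCm38.p6) held 28 windows, each from 250 bases before to 50 bases after an annotated transcript start, for 22 of the 29 listed genes; Fdft1, Fdps, Sqle, Stard4, Npc1, Abcg1 and Soat2 had no entry. The 200 bases before the start are given 5′ to 3′ on the strand of the gene, with capitals for the letters TCACNCCAC, a form of the sterol regulatory element, and for CCAAT, each on either strand (CCAAT reads ATTGG on the other strand). For Pmvk and Insig2, which have several annotated starts, the window farthest upstream is shown. The stretches lie at chr13:119690151-119690350 (plus strand) for Hmgcs1, chr3:89454341-89454540 (plus strand) for Pmvk, chr5:4104698-4104897 (minus strand) for Cyp51 and chr1:121332590-121332789 (minus strand) for Insig2.
Hmgcs1: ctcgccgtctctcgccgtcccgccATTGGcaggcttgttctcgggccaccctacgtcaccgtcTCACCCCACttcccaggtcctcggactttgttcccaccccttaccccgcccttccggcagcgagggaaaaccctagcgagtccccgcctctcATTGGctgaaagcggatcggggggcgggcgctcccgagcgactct
Pmvk: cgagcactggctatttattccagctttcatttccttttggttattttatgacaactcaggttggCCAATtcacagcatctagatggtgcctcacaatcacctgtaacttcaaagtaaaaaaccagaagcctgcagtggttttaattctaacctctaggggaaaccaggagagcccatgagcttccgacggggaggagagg
Cyp51: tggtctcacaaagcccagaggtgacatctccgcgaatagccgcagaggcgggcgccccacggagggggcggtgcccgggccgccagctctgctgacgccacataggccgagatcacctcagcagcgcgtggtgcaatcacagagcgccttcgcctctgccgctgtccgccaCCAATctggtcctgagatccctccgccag
Insig2: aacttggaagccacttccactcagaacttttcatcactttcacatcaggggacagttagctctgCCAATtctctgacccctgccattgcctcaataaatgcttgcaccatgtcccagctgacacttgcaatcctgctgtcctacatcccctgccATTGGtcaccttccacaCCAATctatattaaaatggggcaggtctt

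Of the 28 windows, 1 held TCACNCCAC (3.57%, against 1.24% of all 32851 windows in the table), and this was the window of Hmgcs1, where the element starts at position -137 from the transcript start. CCAAT was found in 19 of the 28 windows (67.9%, against 37.4% of all windows and 36.7% of the 13172 windows of genes that passed the filter on dim genes). These 19 windows belonged to 19 genes, among them each of the 4 printed ones. The windows of Pmvk and Insig2 that are not printed held no CCAAT. The letters GGGCGG of the GC box were in 24 windows (85.7%, against 35.7% of all windows and 58.4% of those past the filter), and the E-box CACGTG in 7 (25.0%, against 7.15% and 9.68%). Both strands were searched, and no match of TCACNCCAC overlapped one of CCAAT in these windows. These are matches of letters in a fixed window and say nothing about binding in these livers.

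The 26 measured genes all lay above the filter, which left out genes with a mean below the 40th percentile (a log2 value of 3.47) and kept 13308 genes. All values are log2 expression values of a probe set, and differences are subtractions of them, so a difference of 1 is a factor of 2. A gene was counted where 2 arrays differed by at least 1.5-fold, a log2 difference of 0.585 or more. Pearson's r between arrays lay between 0.985 and 0.990, and array medians between 3.53 and 3.56. Myd88, the targeted gene (17532137), had values of 6.10 and 5.91 for WT and LKO on control diet and of 6.44 and 6.23 on HFD. It was thus lower in LKO by less than 1.5-fold on each diet (-0.19 and -0.21), and whether its probe set reads the deleted part was not examined. The 10 hepatocyte markers had a mean log2 value between 11.37 and 11.41 on each array.

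**Figure D1:**
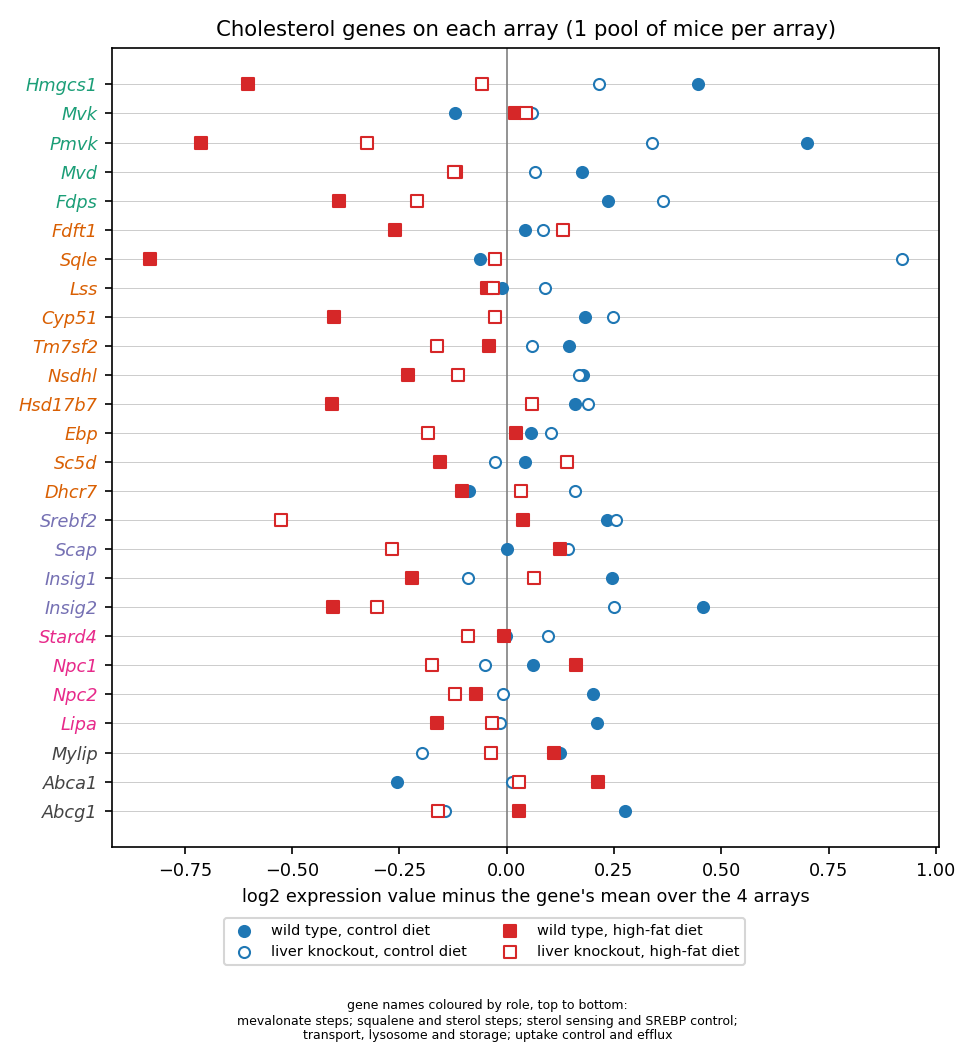
Log2 expression value of the 26 measured cholesterol genes on each of the 4 arrays, minus the gene's mean over the arrays; filled symbols are WT, open symbols LKO, circles control diet and squares HFD. Sqle has the widest range (1.75), with the LKO control-diet array far to the right, and the WT HFD array is the lowest for 14 of the 26 genes.

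High-fat diet went with lower values for most of the genes in both genotypes. In WT 22 of 26 were lower, with a median log2 difference of -0.26, against a median of -0.03 over all genes past the filter, of which 55.0% were lower. In LKO 21 of 26 were lower, with a median of -0.16, against 0.01 over all genes, of which 47.7% were lower. These 2 diet comparisons share no array. A lower value in both genotypes was found for 18 of the 26 genes (69.2%), against 29.0% of all genes. These counts moved with the scaling of the arrays: cyclic loess left 18 lower in WT, 20 in LKO and 14 in both, and quantile normalisation 17, 21 and 14. The values of all genes moved as well. Their median diet effect in the limma fit described below was -0.005, and 0.010 and 0.011 after these scalings. The shares of all genes that were lower after them were not counted. For 15 of the 26 genes both HFD arrays lay below both control arrays, an arrangement found for 21.2% of all genes, and for 1 gene, Abca1, both lay above (by 0.02 in LKO, which cyclic loess turned to -0.02), found for 19.1% of all genes. The 15 genes became 13 after cyclic loess (18.9% of all genes) and 12 after quantile normalisation (18.7%).

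At least 1.5-fold lower on HFD were 5 genes in WT, where 2.52% of all genes were, and 3 in LKO, where 1.72% of all genes were. The 5 in WT were Pmvk, Hmgcs1, Insig2, Sqle and Fdps, and the 3 in LKO were Sqle, Srebf2 and Pmvk. The order of these counts was not stable, with 4 in WT and 5 in LKO after cyclic loess and 4 in each after quantile normalisation. The shares of all genes at 1.5-fold after these scalings are not given. At least 2-fold lower were 2 genes in WT, Pmvk and Hmgcs1 (0.564% of all genes), and 0 in LKO (0.286% of all genes). None of the 26 was at least 1.5-fold higher in either genotype, where 1.68% of all genes were in WT and 2.28% in LKO. An additive limma fit to the 4 arrays estimated diet and genotype effects, with the single degree of freedom left (the diet by genotype difference) as error. For diet 0 of the 26 genes had an adjusted p (Benjamini-Hochberg) under 0.05, as did 0% of all genes. After cyclic loess the limma fit called 70 of all 13308 genes for diet, Pmvk and Sqle among them. At an unadjusted p under 0.05 the limma fit held 8 of the 26, all lower (Hmgcs1, Pmvk, Fdps, Sqle, Cyp51, Nsdhl, Srebf2 and Insig2), against 4.97% of all genes that were lower at this level and 4.33% that were higher. The error behind these p-values is that single degree of freedom, combined with a prior from all genes worth 4.63 degrees of freedom. It measures neither the spread between pools of a group nor that between mice. A diet difference that depends on genotype counts as error in it.

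The mevalonate steps held the lowest diet differences of WT. Pmvk, phosphomevalonate kinase (probe set 17399474), measured 7.18 in WT and 6.81 in LKO on control diet, and 5.77 and 6.15 on HFD. Both HFD arrays were thus below both control arrays, and the gap was wider in WT. The diet difference was -1.41 in WT, where 28 of the 13308 genes were as low or lower, and -0.66 in LKO, with a limma effect of -1.04 (SE 0.20, adjusted p = 0.277). Hmgcs1, the HMG-CoA synthase of the cytosol (17290173), had values of 9.98 and 9.75 on control diet in WT and LKO, and of 8.93 and 9.48 on HFD. Its WT HFD array stood apart from the other 3, so the diet difference was -1.05 in WT and -0.27 in LKO (limma effect -0.66, SE 0.20, adjusted p = 0.427). Fdps, which makes farnesyl diphosphate (17406908), had values of 7.91 and 8.03 on control diet and 7.28 and 7.46 on HFD.

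Fdps was the mevalonate gene with the most similar diet difference in the 2 genotypes, at -0.62 and -0.57 (limma effect -0.60, SE 0.12, adjusted p = 0.287). After cyclic loess its WT difference was -0.57 and its LKO difference -0.62, so which of the 2 passed 1.5-fold changed with the normalisation. Mvd, the mevalonate diphosphate decarboxylase, had smaller differences of -0.29 and -0.19. Mvk, mevalonate kinase, differed by 0.14 in WT and -0.01 in LKO, and its 4 values lay between 4.52 and 4.69.

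Among the squalene and sterol steps, all 10 enzyme genes were lower on HFD in WT and 8 of 10 in LKO, with medians of -0.25 and -0.18. The WT count was 8 after cyclic loess and 7 after quantile normalisation, and 8 in LKO under both. Sqle, squalene epoxidase and a control point of the sterol branch (17311807), had values of 5.90 in WT and 6.88 in LKO on control diet, and of 5.13 and 5.93 on HFD. Each HFD array was below the control array of its own genotype, yet the LKO HFD value was level with the WT control value, so the diets overlapped. The diet difference was -0.77 in WT and -0.95 in LKO (limma effect -0.86, SE 0.13, adjusted p = 0.205), the smallest adjusted p for diet among the 26 genes. Cyp51, the lanosterol demethylase, had values of 7.94 and 8.00 on control diet and 7.35 and 7.73 on HFD. Its difference of -0.584 in WT lay just short of 1.5-fold, and that in LKO was -0.27.

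Nsdhl and Hsd17b7, which act one after the other in removing the methyl groups of lanosterol, had diet differences of -0.41 and -0.57 for WT and of -0.28 and -0.13 for LKO. Fdft1, squalene synthase, differed by -0.30 in WT and 0.05 in LKO, and Sc5d, the sterol desaturase, by -0.20 and 0.17; these were the 2 of the 10 that were higher in LKO. Lss (lanosterol synthase), Tm7sf2 (a sterol reductase), Ebp (the sterol isomerase) and Dhcr7 (a late sterol reductase) differed by between -0.29 and -0.02 in either genotype; the WT differences of Lss and Dhcr7 turned positive under both of these scalings and that of Ebp after quantile normalisation. The genes with the large diet differences were thus spread along the pathway, with neighbours such as Lss that differed little. Apart from Sqle, none of the 10 reached 1.5-fold in either genotype.

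The sterol sensing genes did not share a direction. Insig2, one of the 2 proteins that retain Scap in the endoplasmic reticulum (17226346), had values of 9.08 in WT and 8.87 in LKO on control diet, and of 8.22 and 8.32 on HFD. Both HFD arrays lay well below both control arrays, by differences of -0.86 and -0.55 (limma effect -0.71, SE 0.14, adjusted p = 0.278). Insig1, the other retention protein and itself a target of SREBP2 (17435584), had values of 10.31 and 9.98 on control diet and 9.85 and 10.13 on HFD. Its diet difference was -0.46 in WT and 0.15 in LKO, so the diets overlapped. Srebf2 (17313504) had values of 6.51 and 6.53 on control diet and 6.32 and 5.75 on HFD.

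The LKO HFD array was the one low value of Srebf2, with a diet difference of -0.78 in LKO and -0.20 in WT (limma effect -0.49, SE 0.17, adjusted p = 0.492). Scap was likewise lowest on that array, with a diet difference of -0.41 in LKO and 0.12 in WT. A second probe set of Scap was dim, between 3.73 and 3.90 on the 4 arrays, and that of Npc1 between 3.32 and 3.67.

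The genes of sterol transport, lysosome and efflux differed less with diet, and none of the 7 reached 1.5-fold in either genotype. Lipa, the lysosomal acid lipase that frees cholesterol from lipoprotein esters, had values of 11.01 and 10.78 on control diet and 10.63 and 10.76 on HFD, differences of -0.37 in WT and -0.02 in LKO. Npc2, which hands lysosomal cholesterol to the membrane protein Npc1, differed by -0.27 and -0.11, and Npc1 differed by 0.10 and -0.12; with the mean over its probe sets both Npc1 differences changed sign (-0.01 and 0.08). Stard4, a carrier of cholesterol in the cytosol and an SREBP2 target, differed by -0.01 (0.05 after cyclic loess and 0.06 after quantile normalisation) and -0.19. Abca1, which loads cholesterol onto apolipoprotein A-I and is an LXR target (17425301), had values of 9.08 and 9.35 on control diet and 9.55 and 9.37 on HFD. It was the highest of the 26 genes by diet difference in WT, at 0.47, while the difference in LKO was 0.02 (limma effect 0.24, SE 0.15, adjusted p = 0.695). Abcg1, an exporter to high-density lipoprotein, differed by -0.25 and -0.02, and Mylip, the ubiquitin ligase that marks lipoprotein receptors for degradation, by -0.02 (0.05 after cyclic loess) and 0.16; both are LXR targets too.

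**Figure D2:**
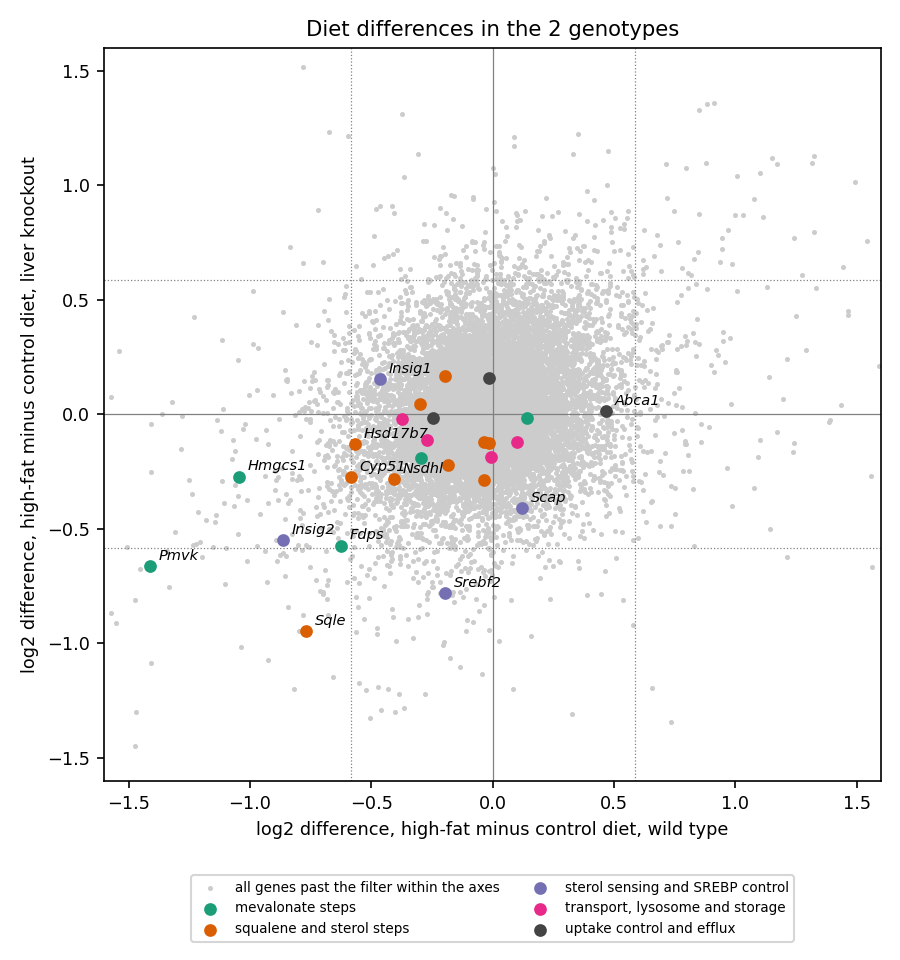
Log2 difference between high-fat and control diet in WT (horizontal) and in liver knockout (vertical) for the 26 cholesterol genes, coloured by role, over all genes past the filter that lie within the axes (grey); dotted lines mark 1.5-fold. Most cholesterol genes lie at the lower left, with Sqle and Pmvk beyond 1.5-fold on both axes, and Abca1 (0.47 and 0.02) on the right.

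The next comparison asked how the same genes differed with loss of Myd88 in hepatocytes. Sqle was higher in LKO on both diets, 1.98-fold on control diet (log2 difference 0.98) and 1.75-fold on HFD (0.80). The other 25 genes differed by less than 1.5-fold on each diet. As a group the genes showed no common direction. Lower in LKO were 13 of 26 on control diet, against 53.3% of all genes, and 11 of 26 on HFD, against 45.9%. Their medians were 0.01 and 0.06, against -0.02 and 0.02 over all genes. By role, 1 of 5 mevalonate genes and 2 of 10 squalene and sterol genes were lower in LKO on HFD. So were 2 of 4 sterol sensing, 3 of 4 transport, lysosome and storage, and 3 of 3 uptake control and efflux genes. The mevalonate count was 0 after cyclic loess and 2 after quantile normalisation, and the squalene and sterol count 3 after both. In the same order of roles the control diet counts were 3, 3, 2, 3 and 2. On control diet 1 of 26 was at least 1.5-fold higher (0.902% of all genes) and 0 were at least 1.5-fold lower (0.864% of all genes). On HFD 1 of 26 was at least 1.5-fold higher (2.1% of all genes) and 0 were lower (1.01% of all genes). None was at least 2-fold higher on control diet (0.346% of all genes) or on HFD (0.225%). These 2 genotype comparisons share no array, but each of them shares arrays with both diet comparisons.

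For genotype, limma's fit gave 0 of the 26 genes an adjusted p under 0.05, as it did 0% of all genes. At an unadjusted p under 0.05 the limma fit held 1, Sqle, which was higher, where 2.39% of all genes were higher at this level, and 0 that were lower, where 1.87% of all genes were. Its effect was 0.89 (SE 0.13, limma adjusted p = 0.791). Both LKO arrays lay above both WT arrays for 4 genes, Mvk, Fdft1, Sqle and Dhcr7, where 15.1% of all genes had this arrangement; for Mvk it did not hold after quantile normalisation, which turned its difference on HFD from 0.02 to -0.02. They lay below for 3, Npc1, Mylip and Abcg1, where 14.1% of all genes did.

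For Sqle, though, the separation was narrow at one point, since the LKO HFD value of 5.93 exceeded the WT control value of 5.90 by little. Dhcr7 was higher in LKO by 0.25 on control diet and 0.14 on HFD. Abcg1 (17335770) had values of 4.77 and 4.52 in WT and 4.35 and 4.33 in LKO on control and HFD. Its genotype difference was -0.42 on control diet and -0.19 on HFD (limma effect -0.30, SE 0.13, adjusted p = 0.975). The genotype differences of Mylip were -0.32 and -0.15, and those of Npc1 -0.11 and -0.34.

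On HFD Hmgcs1 (0.54), Hsd17b7 (0.47), Fdft1 (0.39), Pmvk (0.39) and Cyp51 (0.37) had the next highest genotype differences after Sqle. Of the 15 enzyme genes measured, 11 had their lowest value on the WT HFD array and 3 on the LKO HFD array, against 28.1% and 26.6% of all genes. The lowest genotype differences on HFD were those of Srebf2 (-0.56) and Scap (-0.39). After quantile normalisation that of Srebf2 was -0.64, past 1.5-fold.

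**Figure D3:**
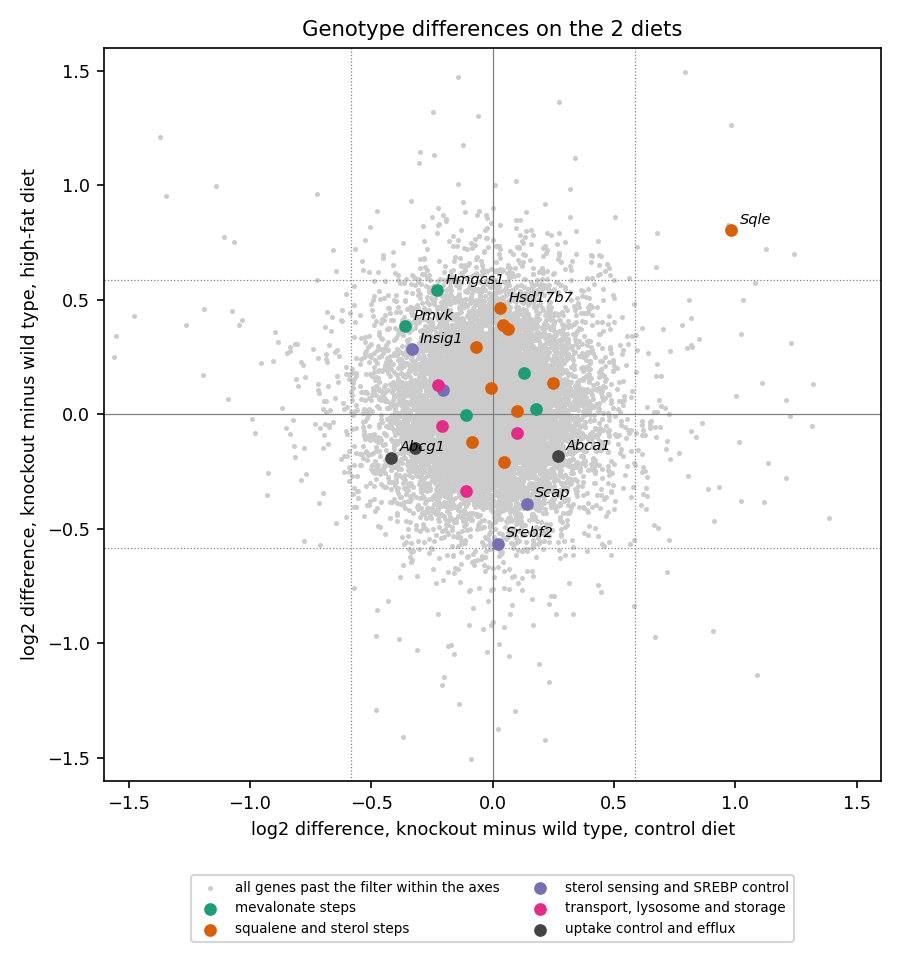
Log2 difference between liver knockout and WT on control diet (horizontal) and on HFD (vertical) for the 26 cholesterol genes, coloured by role, over all genes past the filter that lie within the axes (grey); dotted lines mark 1.5-fold. Sqle (0.98 and 0.80) stands apart at the upper right, and the other genes lie within the dotted lines.

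Whether the diet difference depended on genotype was read as the diet difference in LKO minus that in WT, which has no replicate and no test. It reached 1.5-fold in the positive direction for 3 of the 26 genes, Hmgcs1 (0.77), Pmvk (0.75) and Insig1 (0.62), where 5.12% of all genes did. In the negative direction it did so for 1, Srebf2 (-0.59), where 3.11% of all genes did, while Scap had -0.53 and Abca1 -0.45. Hmgcs1 and Pmvk had the less negative diet difference in LKO. Srebf2 had the more negative one there. Fdps (0.05), Tm7sf2 (-0.04) and Lss (-0.09) had nearly the same diet difference in both genotypes.

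**Figure D4:**
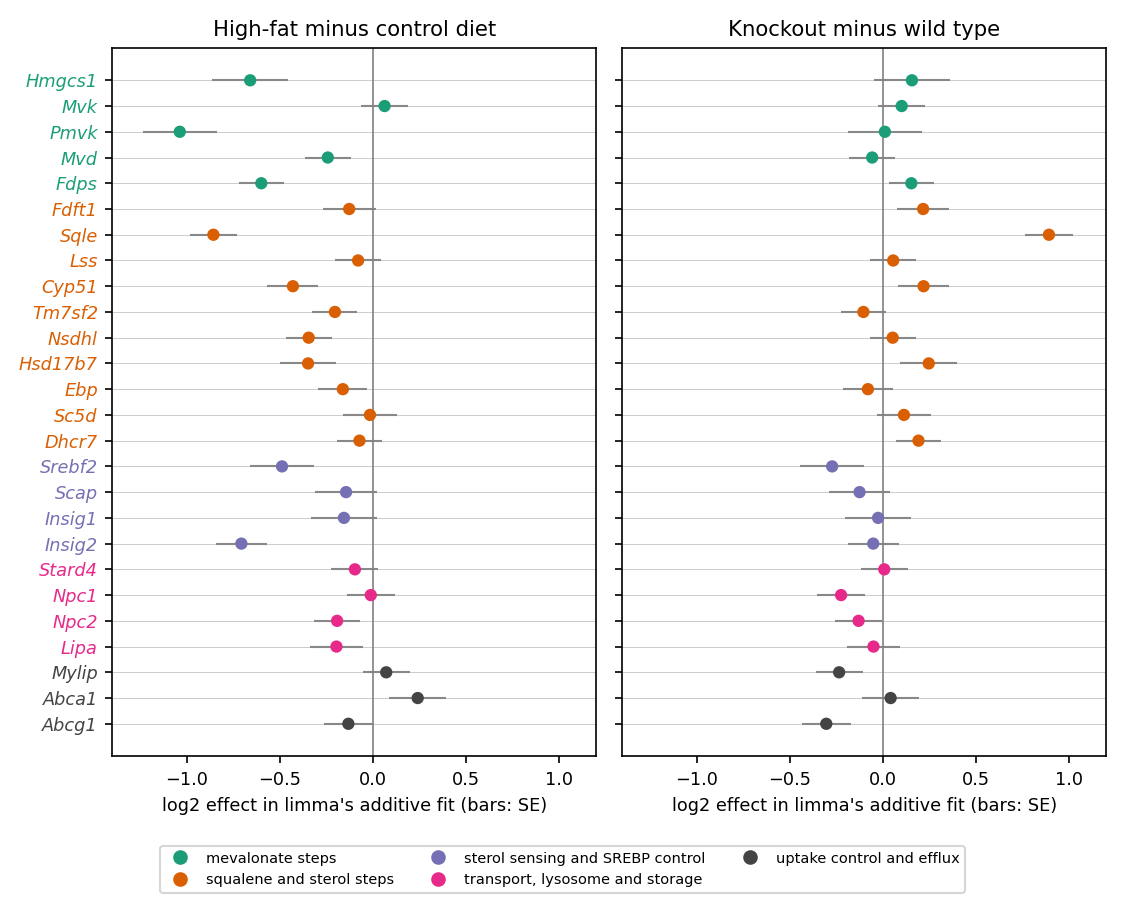
Effects of diet (left) and genotype (right) on the 26 cholesterol genes in limma's additive fit over 4 arrays, as log2 effects with their standard errors, coloured by role. Sqle lies at -0.86 for diet and 0.89 for genotype, and none of the effects passed an adjusted p of 0.05.

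Other genes of cholesterol handling that are not on the list served as a comparison, and 27 were measured. They had a median diet difference of -0.02 in WT and 0.12 in LKO, with 15 and 9 of 27 lower. For diet or genotype 0 passed an adjusted p of 0.05 in limma. At an unadjusted p under 0.05 the limma fit held 2 higher for diet, Srebf1 and Aacs, against 4.33% of all genes. For genotype it held 1 higher, Msmo1, against 2.39% of all genes, and 2 lower, Aacs and Erlin2, against 1.87%. Aacs, Erlin2 and Msmo1 are named here after their values were seen. Srebf1, which encodes the SREBP isoform that drives fatty acid synthesis, was the 1 gene of them at least 1.5-fold higher on HFD, by 0.82 in WT and 0.61 in LKO, opposite in sign to Srebf2. Rnf145, a ubiquitin ligase of the sterol response, had diet differences of -0.63 for WT and -0.12 for LKO. Msmo1, the sterol methyl oxidase that acts in the same stretch of the pathway as Nsdhl, differed by 0.06 and -0.12 with diet and was higher in LKO by 0.48 on control diet and 0.29 on HFD.

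Transcripts of other tissues and cells also differed between the pools. All 8 measured of 9 listed exocrine pancreas markers (Cpa1, Cpb1, Cela1, Ctrb1, Clps, Try4, Cel and Pnliprp1) were at least 1.5-fold higher on HFD in both genotypes and in LKO on both diets. Their summed level on the linear scale was 494 in WT and 2475 in LKO on control diet, and 2346 and 5265 on HFD. Of the 10 measured acute phase transcripts, 7 were at least 1.5-fold higher in LKO on control diet, namely Saa2 (7.37), Lcn2 (4.30), Orm2 (3.32), Mt2 (2.70), Mt1 (2.41), Apcs (1.99) and Orm1 (0.65). The diet differences of these 10 had a median of 0.97 in WT and -0.59 in LKO, and they summed to 20140 and 37126 on control diet and to 25908 and 26385 on HFD. The acute phase sum was highest on the LKO control array and lowest on the WT control array. Of the 26 cholesterol genes, 11 were highest on the LKO control array, Sqle among them, against 20.1% of all genes. On the WT control array 11 were highest, against 28.1% of all genes. How the acute phase level relates to the cholesterol genes was not tested.

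Skeletal muscle markers summed to 97.3 and 89.6 on control diet and to 216 and 80.0 on HFD. On HFD Acta1 (-1.91), Ttn (-1.50), Mb (-1.37), Tnnt3 (-1.30) and Ckm (-1.29) were lower in LKO than in WT. So was Myh1 (-0.64), whose mean over the arrays did not pass the filter. The 8 Kupffer cell and macrophage markers summed to 1682 and 1549 on control diet and to 1523 and 1507 on HFD. Marco and Adgre1 were at least 1.5-fold lower on HFD in WT (-0.72 and -0.63), with 6 of the 8 markers lower there, and at least 1.5-fold lower in LKO on control diet (-0.81 and -0.64), with 7 of 8 lower. The macrophage sum was highest on the WT control array. The hepatocyte markers summed to between 52975 and 54909. No marker is at 0 on this scale, the part of these transcripts in the results for the cholesterol genes was not tested, and in whole liver fewer cells of a type and less RNA per cell cannot be told apart.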

How the data were processed

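The deposited table holds 1 log2 value for each probe set and array, which the authors made by RMA using the Expression Console of Affymetrix, as stated in the submitters' processing notes (no version given). RMA subtracts background, brings the single probes of the arrays to 1 distribution and compresses differences of dim probe sets. Scanner files and detection calls were not used here, so signal over background is unknown. Of 41345 probe sets, 23521 had 1 gene symbol in the platform annotation, 1814 had several and 16010 had none; only the first were named. Each of 22180 genes was read from its probe set with the highest mean, and 13308 passed the filter. Differences between 2 arrays have no replicate and no p-value. Effects over 4 arrays were fitted across all genes with limma 3.58.1 in R 4.3.3 (additive terms for diet and genotype, eBayes, Benjamini-Hochberg adjustment). The fit was also run on simulated data with the same spread for all genes and no diet by genotype effect. That setting differs from these arrays, so the run does not test the p-values given here. Python 3.11.15 with pandas 2.3.3, NumPy 2.4.6 and matplotlib 3.10.9 did the rest. Alternatives were cyclic loess, quantile normalisation, the mean over probe sets, no filter, a 60th percentile filter, a 2-fold limit and a trended prior. Leaving out an array would leave a group empty and was not done. All listed genes were to be named, and of the comparison and marker lists any at least 1.5-fold different or past limma's adjusted test. The genes, lists and tests were chosen with earlier results of these data known. Promoter sequences come from RefSeq (GRCm38.p6); the array's own genome build is not used.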

Additional observations from a re-analysis of the deposited data

Results flagged for a closer look

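The diet difference in LKO minus that in WT reached 1.5-fold in the positive direction for 3 of the 26 genes (5.12% of all genes). It did so in the negative direction for 1 (3.11% of all genes). In these 4 genes the genotype differences on the 2 diets also had opposite signs. For Srebf2 this rested on a difference of 0.02 on control diet. The 2 conditions are linked, because the first value also equals the genotype difference on HFD minus that on control diet. With 1 array per group none of this was tested. Genotype differences without a common sign were found for 12 of the 26 genes and for 6662 of all 13308. The share of all genes that met both conditions was not counted. Hmgcs1 (a value of 0.774 for LKO minus WT) differed with genotype by -0.23 on control diet and 0.54 on HFD, Pmvk (0.747) by -0.36 and 0.39, Insig1 (0.619) by -0.33 and 0.28, and Srebf2 (-0.585) by 0.02 and -0.56. For Insig1 the diet differences were also of opposite sign, -0.46 in WT and 0.15 in LKO.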

How the results depend on the processing

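No paired analysis was possible because each group has 1 array. For the 26 genes, the median diet differences kept their sign and stayed within 1.5 times under all alternatives run, and the 0 counts for genes at least 1.5-fold higher with diet, or lower with genotype on control diet, did not change. At 2-fold, 2 genes were lower with diet in WT (0.564% of all genes) and 0 in LKO (0.286%), and 0 were higher in LKO on control diet (0.346%) and 0 on HFD (0.225%). After cyclic loess, 4 genes were at least 1.5-fold lower with diet in WT, against 5, and 5 in LKO, against 3, and limma called 2 genes for diet at an adjusted p of 0.05, Pmvk and Sqle, against 0; it called 70 of all genes for diet and 3 for genotype. The cause was not tested. After cyclic loess or quantile normalisation 1 gene was at least 1.5-fold lower in LKO on HFD, Srebf2, against 0. The median genotype difference on control diet, 0.0059, was 0.0357 after loess and 0.0255 after quantile normalisation, and that on HFD, 0.0645, was 0.0295 and 0.0209. At an unadjusted p under 0.05 limma held 2 genes for genotype after quantile normalisation and 2 with no filter, against 1. For the 1.5-fold and unadjusted counts after these scalings and with no filter, the shares of all genes are not given. Of the 104 differences of single genes between 2 arrays, 100 kept their side of 1.5-fold after loess, 101 after quantile normalisation and 104 with the mean over probe sets, and none of those past 1.5-fold changed sign.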
